A study of Mus musculus with 19 samples.

Results

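The secreted and surface end of the Wnt pathway was examined as a set of 38 genes: 19 Wnt ligands, 12 secreted antagonists, 4 R-spondins and the 3 Lgr receptors. The genes were taken by name, through the RefSeq accession that each array probe carries, and not by their signal. All 38 had a probe, out of 20660 genes with a probe on the array, and 37 gave a signal that could be tested among 19717 genes. The exception was the ligand gene Wnt3a, which was well above background on no array.

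Wnt proteins are lipid-modified signals that bind Frizzled receptors and the co-receptors Lrp5 and Lrp6, and in the canonical branch they let beta-catenin accumulate and act with TCF and LEF factors in the nucleus. Secreted frizzled-related proteins (Sfrp1, Sfrp2, Sfrp4, Sfrp5 and Frzb) and Wif1 bind Wnts outside the cell, Dkk proteins bind the co-receptors, and Notum removes the lipid. R-spondins bind Lgr4, Lgr5 and Lgr6 and keep Frizzled receptors at the surface by holding back the ubiquitin ligases Rnf43 and Znrf3. In skin these genes are known from the dermal papilla and the hair follicle, and in the gonad Rspo1 and Wnt4 are known from ovary development.

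Fibroblast cultures from 5 internal organs (heart, lung, liver, kidney and gonad) and from skin and tail of adult mice were profiled on 1-colour arrays, and the comparison asked how cultures differed by organ of origin. The mice were 8 to 10 weeks old, and all groups shared enzyme digestion of minced tissue with trypsin or collagenase, followed by 5 days of culture with 10% serum, and the labels name no further treatment. The labels give no strain, genotype or sex, do not name the enzyme used for each organ, and do not identify the gonad as ovary or testis. Kidney and skin had 2 samples each and the other organs 3. For lung replicate 2 no scanner signals were analysed here, which left 18 arrays. Nothing in the labels ties the replicates of an organ to separate mice, so p-values measure the spread between these samples, which may be technical.

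On 5 arrays, gonad 3, heart 1, kidney 1, kidney 2 and tail 2, the dark control spots read above the range that the scanner software accepts. They are called raised-floor arrays here. Their median raw signal was 213 to 1985, with 84.9% to 96.6% of probes well above background. On the 13 other arrays the median was 63 to 130.5, and 51.2% to 77.2% of probes were well above background. Both kidney arrays had a raised floor, so kidney and floor cannot be told apart. Of 10 fibroblast marker genes, 10 were well above background on every array of 6 organs and 9 on every kidney array. Their summed signal, in percent of an array's 75th percentile, was 13640 to 26400 in kidney and 34500 to 188400 in heart. It was 105500 to 180300 in the other organs. The low heart value was that of the raised-floor array heart 1, where all 10 markers read lowest of the heart arrays. The part of the floor in these sums was not tested.

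Levels below are log2 signals less the 75th percentile of the same array, so a level of 0 is a signal at that percentile. They compare arrays for 1 probe and do not rank genes against each other. Differences are limma estimates of 1 organ mean less the mean of the other 6 organ means, on the log2 scale and given ± SE. A gene passed with a Benjamini-Hochberg adjusted p under 0.05 over all genes tested and a log2 difference of at least 1. Where an organ on the lower side was not well above background on any array, a lower bound of the fold is given in place of the difference. The bound sets only that organ at the lowest signal well above background. An organ with some arrays well above background keeps all its readings, also those that are not. Some bounds for Lgr5, Wnt10a, Wif1, Wnt7b and Wnt8a, among others, thus rest in part on such readings and may overstate the least fold. The bounds hold for the main scaling alone, and some other settings gave fitted differences below them. Beside such a bound, differences within slides or with an array left out are fitted values that rest in part on signals not well above background. In these bulk cultures, fewer cells of a type and less RNA per cell cannot be told apart.

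In an F test over the 7 organs, 20 of the 37 members passed at an adjusted p under 0.05 (54.1%), while 34% of all genes tested passed. The members that passed were 7 of 18 ligands (Wnt4, Wnt5a, Wnt5b, Wnt9a, Wnt10a, Wnt10b and Wnt16), 7 of 12 antagonists (Sfrp1, Sfrp2, Sfrp4, Frzb, Dkk2, Dkk3 and Wif1), 3 of 4 R-spondins (Rspo1, Rspo2 and Rspo3) and all 3 Lgr receptors. Among 42 other genes of the pathway (Frizzled receptors, co-receptors, secretion factors, intracellular transducers and target genes), 20 passed (47.6%). On the 13 arrays without a raised floor, 14 members were well above background on every array, 21 on 1 to 12 of them, and Wnt3 and Dkk1 on none.

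Tail had the most members passing outside kidney: 13 of 37 (35.1%), with 6.27% of all genes passing. There 8 were higher and 5 lower, and over all genes 4.08% were higher and 2.19% lower. Heart had 2 members higher and 7 lower, 9 in all (3.76% of all genes, 1.37% higher and 2.39% lower). Gonad had 2 higher and 3 lower, 5 in all (2.94% of all genes, 2.13% higher and 0.811% lower). Liver also had 2 higher and 3 lower (1.82% of all genes, 1.21% higher and 0.609% lower). Lung had 2 members, both higher (0.533% of all genes, 0.411% higher and 0.122% lower), and skin 3, all higher (1.39% of all genes, 0.73% higher and 0.659% lower). In each of these 6 organs the members' share was above that of all genes, and this was not tested, since the members were chosen as a set.

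**Figure D1:**
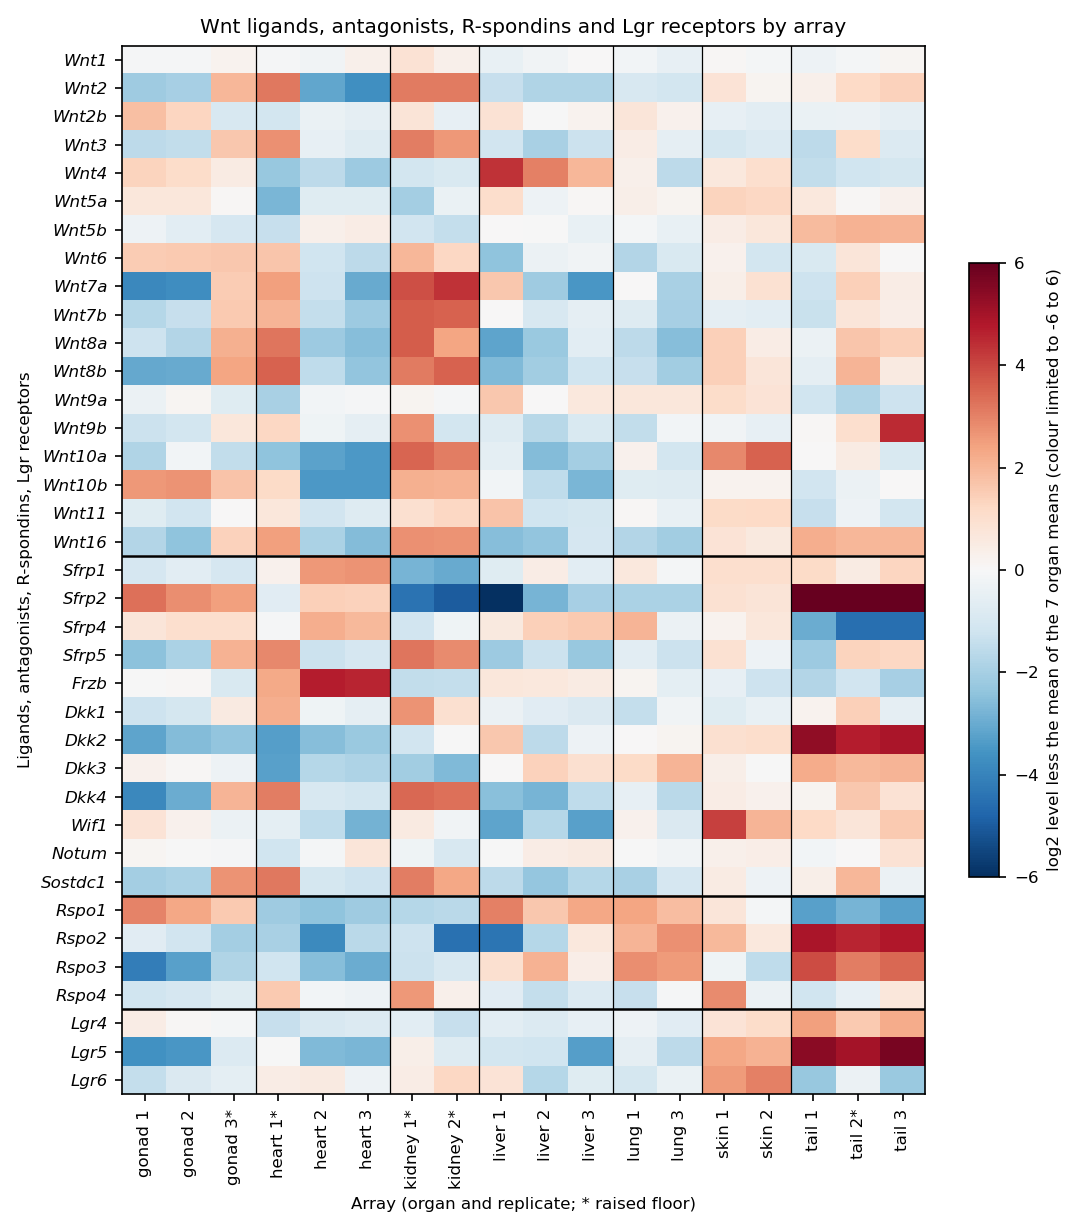
Log2 level of each tested member (rows, by role) on each of the 18 arrays (columns, by organ; an asterisk marks a raised-floor array), less the mean of that gene's 7 organ means; the colour scale is limited to -6 to 6. The 3 tail columns are red for Sfrp2, Dkk2, Rspo2, Rspo3 and Lgr5 and blue for Sfrp4 and Rspo1, and the 5 columns with an asterisk are mostly red for dim ligands such as Wnt3 and Wnt8b.

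Among the ligands, Wnt4 stood apart in liver. Wnt4 is known for its part in kidney tubule and female gonad development. Its level was 5.25, 3.95 and 2.91 on the 3 liver arrays, 2.28, 2.06 and 1.44 in gonad, 1.57 and 1.94 in skin and 1.22 and -0.63 in lung. It was -0.16 and 0.022 in kidney, -0.57, -0.28 and -0.14 in tail and -1.33, -0.66 and -1.26 in heart. Every liver array was above every other array, and every heart array was below every other array. The liver difference of Wnt4 passed (log2 3.62 ± 0.44, adjusted p = 0.00107), and it was lower in heart (log2 -2.35 ± 0.44, adjusted p = 0.00593). Within slides 1, 2 and 3, the liver difference was 4.61, 2.56 and 3.98 and the heart difference -2.29, -2.53 and -2.54. The other Wnt4 probe was also highest in liver, at 2.31, 1.30 and 1.04, but on it heart 1 read -0.39, above all tail arrays. Mesothelial markers, 9 of 9 measured well above background on every liver array, summed to 1952 to 12950% of the 75th percentile in liver and 126.7 to 345.4% in heart. They also summed to 4443 to 10270% in lung, 3241 to 4395% in kidney and 2111 to 4083% in gonad. On the raised-floor kidney arrays the highest of them were Krt8 (3.83 and 4.24), Krt19 (2.96 and 3.62) and Msln (2.90 and 3.18). Upk3b, Upk1b, Lrrn4, Bnc1 and Gpm6a read -4.39 to -0.97 in kidney and -0.86 to 4.0 in liver. Endothelial markers summed to 7837 to 28530% in liver, 4034 to 15850% in gonad and 582.5 to 2596% in the other organs. Egfl7 was the highest of them in liver (5.96, 7.90 and 6.27) and gonad (4.85, 7.0 and 6.17) and weighed most in these sums. Cdh5, Emcn and Tie1 were also highest in liver and gonad, and Tek was lower there than in heart and tail. The part of these cells in the Wnt4 differences was not tested.

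Wnt5b, a ligand that acts largely without beta-catenin, was highest in tail. It read 2.50, 2.69 and 2.65 on the tail arrays and 1.04 and 1.30 on the skin arrays. Levels were -0.78, 0.90 and 1.05 in heart, 0.65, 0.59 and 0.17 in liver and 0.51 and 0.14 in lung, with 0.31, -0.013 and -0.38 in gonad and -0.56 and -0.81 in kidney. No tail array overlapped any other array. The tail difference passed (log2 2.34 ± 0.33, adjusted p = 0.000645) and was 2.07, 2.52 and 2.47 within slides 1, 2 and 3. Its close relative Wnt5a, known for outgrowth of limbs and other body parts, passed the F test (adjusted p = 0.0384) but no organ comparison outside kidney. Wnt5a was well above background on all 18 arrays, at 3.23 and 3.14 in skin, 2.55, 2.58 and 1.94 in gonad and 2.50, 1.97 and 2.13 in tail. It was 2.94, 1.57 and 1.95 in liver, 2.24 and 2.03 in lung, -0.87, 1.18 and 1.16 in heart and -0.17 and 1.49 in kidney. The skin arrays lay above all others for Wnt5a, and the difference of skin from the other organs (log2 1.52 ± 0.53, adjusted p = 0.261) missed the threshold.

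Wnt10a, a ligand known from tooth, hair and sweat gland development, was high in skin. The skin levels were -0.31 and 0.35, next to 0.31 and -0.10 on the raised-floor kidney arrays. Lung read -2.94 and -4.29, tail -3.18, -2.71 and -4.11, gonad -5.01, -3.35 and -4.65 and liver -3.76, -5.76 and -5.21. Heart, where Wnt10a was not well above background on any array, read -5.58, -6.41 and -6.63. Only the kidney arrays overlapped the skin arrays. Wnt10a was at least 10.9-fold higher in skin (adjusted p = 0.00506) and at least 3.38-fold lower in heart (adjusted p = 0.000624). The fitted skin difference was 3.26 and 4.58 within slides 1 and 2, and the fitted heart difference -3.86, -2.53 and -3.08 within slides 1, 2 and 3. Over other settings and omissions of 1 array, Wnt10a differed by log2 1.97 to 4.59 in skin and -4.31 to -1.18 in heart. It also passed as lower in liver (log2 -2.02 ± 0.48, adjusted p = 0.0498), but 9 of 12 other processing settings ended that call, with adjusted p from 0.0502 to 0.364, and so did leaving out any of 16 arrays.

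Each of the 3 skin calls (Wnt10a, Wif1 and Lgr6) was lost when either skin array was left out, which leaves 1 skin sample whose spread is assumed to equal that of the other organs. For Wnt10a the fitted difference was then 3.41 to 4.07 on the log2 scale, with adjusted p = 0.0935 to 0.280. Of 8 keratinocyte markers, 2 passed as higher in skin, Krt14 (log2 5.65 ± 0.74, adjusted p = 0.00215) and Col17a1 (log2 4.14 ± 0.72, adjusted p = 0.0111). Trp63 read 2.03 and 2.13 in skin, within its range in the other organs. In skin 7 of 8 were well above background on both arrays, with Krt1 on neither, and in kidney 8 of 8 were. Their summed signal was 1309 to 1593% of the 75th percentile in skin and 495.3 to 950.5% in the other organs. Their part in the skin results was not tested.

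Wnt9a, a ligand of joint formation, was low in tail at -0.83, -1.45 and -0.89. It read -1.59, 0.19 and 0.28 in heart, 0.028, 0.46 and -0.35 in gonad and 0.52 and 0.30 in kidney. In liver it read 1.98, 0.38 and 1.01, in lung 1.04 and 1.02 and in skin 1.47 and 1.18. The raised-floor array heart 1 lay below the tail arrays, and all other arrays lay above them. The tail difference passed (log2 -1.65 ± 0.40, adjusted p = 0.0219) and was -1.66, -1.87 and -1.09 within slides 1, 2 and 3. Leaving out any 1 tail array ended it (log2 -1.76 to -1.45, adjusted p = 0.0917 to 0.153), as did quantile scaling (adjusted p = 0.102). The start of Wnt9a lies beside that of Wnt3a on chromosome 11 in the RefSeq table (windows of 250 bases before the starts at chr11:59306680-59306929 and chr11:59290752-59291001, GRCm38.p6). Wnt9a was well above background on all 18 arrays and Wnt3a on none.

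Among the antagonists, Sfrp2, which binds Wnt proteins, read 6.94, 6.86 and 6.86 in tail and 3.87, 3.34 and 3.04 in gonad. Heart read -0.12, 1.99 and 1.94 and skin 1.48 and 1.32, followed by lung at -1.32 and -1.34, kidney at -3.89 and -4.42 and liver at -6.89, -2.25 and -1.45. The tail arrays lay above all others and differed among themselves by less than 0.1. Sfrp2 was higher in tail (log2 7.38 ± 0.80, adjusted p = 7.17e-05), by 7.82, 6.51 and 7.15 within slides 1, 2 and 3. It was lower in liver (log2 -4.77 ± 0.80, adjusted p = 0.00676), where it was well above background on 2 of 3 arrays. Within slides that difference was -8.31, -3.46 and -4.23, and it ranged from -5.81 to -3.09 as single arrays were left out. In gonad it passed as higher (log2 3.33 ± 0.80, adjusted p = 0.0389), but 4 of 12 other settings ended that call, among them slide as a block (adjusted p = 0.0712) and the arrays without a raised floor (adjusted p = 0.117). Leaving out any of 11 arrays also ended the gonad call.

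Dkk2, an antagonist that binds the co-receptor Lrp6, was also highest in tail. Its level was 5.58, 4.94 and 5.16 in tail, 1.22 and 1.29 in skin and 0.26 and 0.43 in lung. In liver it was 1.86, -1.31 and -0.052 and in kidney -0.91 and 0.22. The lowest levels were those of gonad at -2.94, -2.34 and -2.14 and heart at -3.07, -2.32 and -2.0. All tail arrays lay above all others, by at least 3 log2 units, and the gonad and heart arrays lay below all others. Dkk2 was higher in tail (log2 5.82 ± 0.49, adjusted p = 9.37e-06), lower in gonad (log2 -3.17 ± 0.49, adjusted p = 0.00213) and lower in heart (log2 -3.16 ± 0.49, adjusted p = 0.00162). Within slides 1, 2 and 3 the tail difference was 5.87, 5.69 and 6.75, that of gonad -4.08, -3.05 and -2.38 and that of heart -3.35, -3.92 and -2.20. Quantile scaling ended the gonad call (adjusted p = 0.0518).

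Dkk3, a divergent member of the family, was high in most cultures and low in heart and kidney. It read 5.93, 5.64 and 5.73 in tail, 4.84 and 5.74 in lung, 3.69, 5.08 and 4.64 in liver and 4.02 and 3.67 in skin. Gonad read 3.95, 3.75 and 3.38, heart 0.42, 1.97 and 1.82 and kidney 1.58 and 1.02. The 3 heart and 2 kidney arrays were the 5 lowest, and lung 3 fell among the tail arrays. Dkk3 was higher in tail (log2 2.43 ± 0.36, adjusted p = 0.000869) and lower in heart (log2 -2.66 ± 0.36, adjusted p = 0.000675). The differences within slides 1, 2 and 3 were 2.68, 2.0 and 2.77 for tail and -1.94, -4.27 and -2.12 for heart.

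Frzb, also called Sfrp3, marked heart. The heart arrays read 2.52, 4.96 and 4.80, with the lowest value on the raised-floor array. Liver read 0.93, 0.87 and 0.72, lung 0.41 and -0.35 and gonad 0.23, 0.31 and -0.67. Skin read -0.23 and -1.0, kidney -1.22 and -1.19 and tail -1.52, -0.92 and -1.73. Every heart array lay above every other array. The heart difference passed (log2 4.49 ± 0.44, adjusted p = 4.53e-05) and was 5.19, 2.77 and 5.49 within slides 1, 2 and 3. Frzb was lower in tail (log2 -1.91 ± 0.44, adjusted p = 0.0164), by -2.37, -1.36 and -2.67 within slides, with kidney 1, kidney 2 and skin 2 among the tail arrays. That call ended without tail 1 or tail 3 (adjusted p = 0.115 to 0.132).

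Sfrp1, another Wnt-binding antagonist, was also high in heart, at 2.32, 4.70 and 4.76, but its raised-floor heart array fell among the other organs. Tail read 3.22, 2.56 and 3.37, skin 3.11 and 3.10 and lung 2.74 and 1.97. Liver read 1.34, 2.53 and 1.43, gonad 1.08, 1.45 and 1.08 and kidney -0.70 and -0.94. The heart difference passed (log2 2.15 ± 0.45, adjusted p = 0.012) and was 2.94, 0.22 and 3.19 within slides 1, 2 and 3, so it was small on the slide that held heart 1. Leaving out heart 2 or heart 3 ended the call (adjusted p = 0.117 to 0.124), as did the deposited value table (adjusted p = 0.123).

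Sfrp4, a further member of the frizzled-related family, was lowest in tail. It was well above background on no tail array, with readings of -5.04, -6.59 and -6.57, and on every array of the other organs. Those read -2.11, 0.13 and -0.079 in heart, -1.48, -0.63 and -0.47 in liver and -1.33, -1.06 and -1.05 in gonad. Lung read 0.003 and -2.41, skin -1.82 and -1.38 and kidney -3.20 and -2.32. No tail array overlapped any other. Sfrp4 was at least 9.06-fold lower in tail (adjusted p = 0.000105), and the fitted differences within slides 1, 2 and 3 were -3.91, -5.10 and -5.33. Over other settings and omissions of 1 array, the fitted log2 difference was -5.20 to -1.85.

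Wif1, a Wnt-binding protein, was highest in skin. The skin arrays read 0.29 and -1.78 and the tail arrays -2.63, -3.08 and -2.24. Gonad read -2.98, -3.55 and -4.14, kidney -3.28 and -4.0 and lung -3.54 and -4.66. Heart read -4.37, -5.31 and -6.63 and liver, with no array well above background, -6.95, -5.53 and -7.06. Both skin arrays lay above all others but were 2 log2 units apart. Wif1 was at least 9.9-fold higher in skin (adjusted p = 0.011), by 4.53 and 2.76 within slides 1 and 2. Over other settings and omissions of 1 array, the fitted log2 difference in skin was 1.80 to 4.60. Without skin 1 or skin 2 the difference was 2.53 to 4.60 on the log2 scale (adjusted p = 0.0517 to 0.445). It was at least 3.02-fold lower in liver (adjusted p = 0.00649), by -3.92, -3.57 and -1.46 within slides 1, 2 and 3. That call ended under quantile scaling, with and without background correction (adjusted p = 0.199 to 0.218), and without liver 1 (adjusted p = 0.0556).

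**Figure D2:**
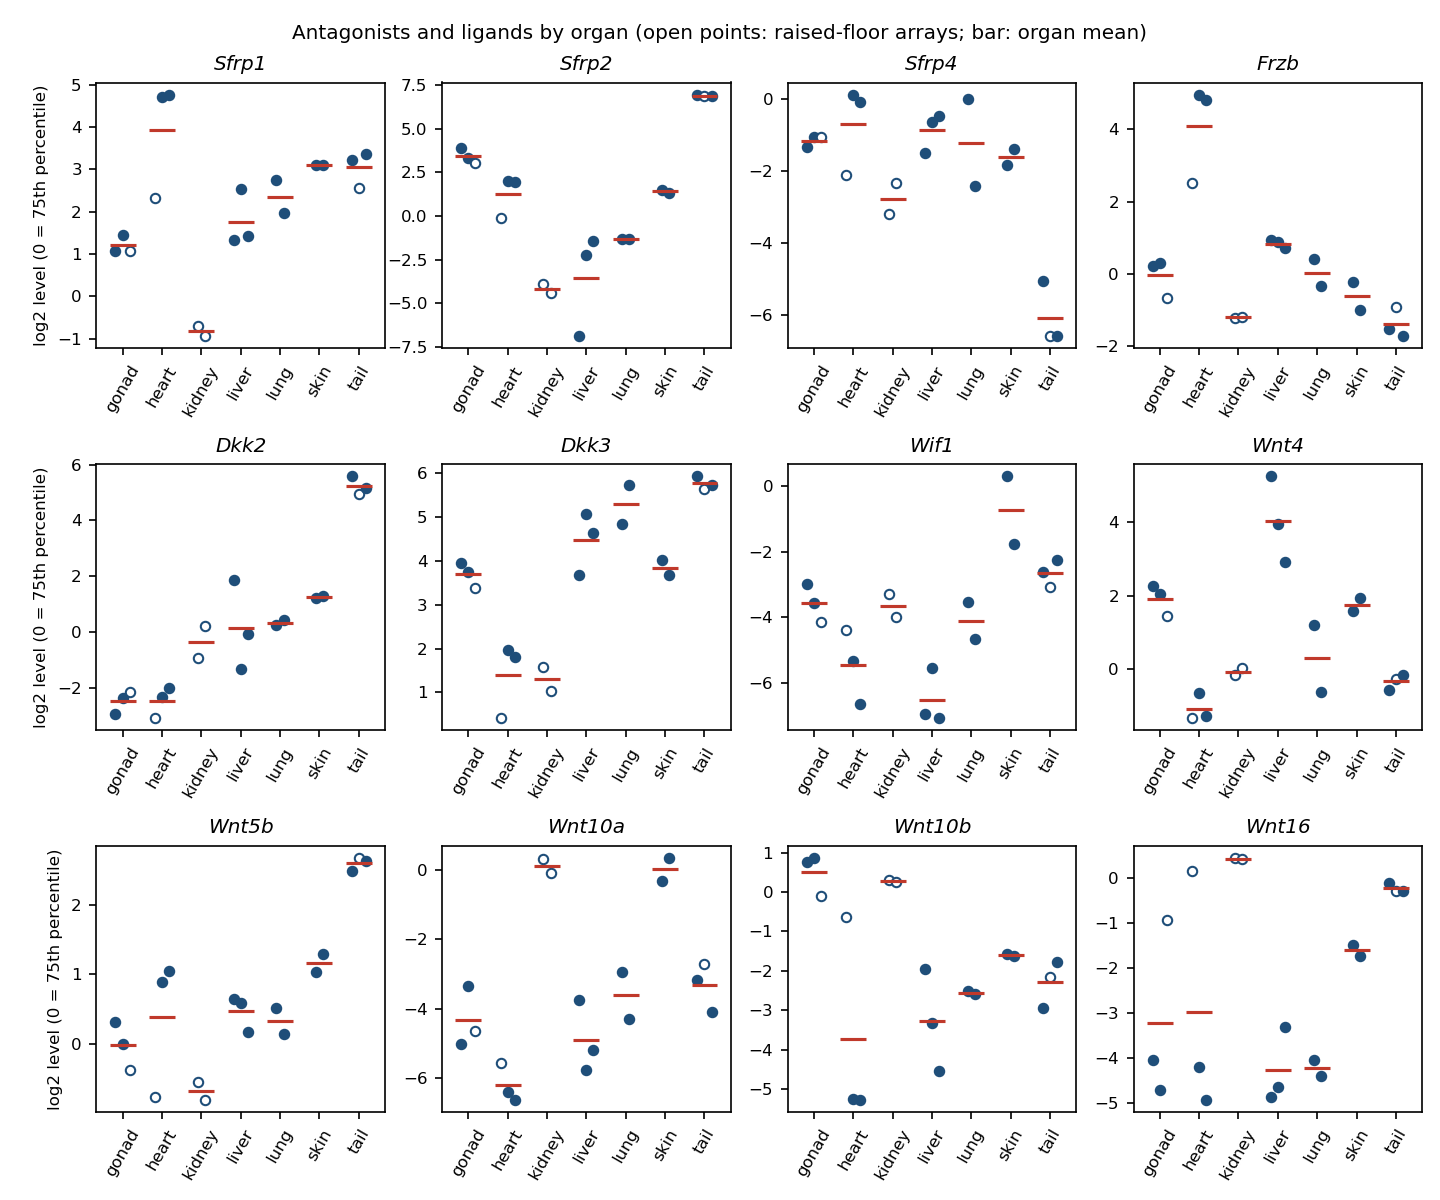
Log2 level (0 is the 75th percentile of the array) of 12 antagonist and ligand genes by organ, 1 point per array, with open points for the 5 raised-floor arrays and a bar at each organ mean; each panel has its own vertical scale. Tail lies highest for Sfrp2, Dkk2 and Wnt5b and lowest for Sfrp4, heart highest for Frzb, liver highest for Wnt4, and open points lie highest in gonad and heart for Wnt16.

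Promoter sequence is shown for Sfrp2, Dkk2 and Frzb, antagonist genes that were set apart in tail or heart, and for Rspo1, which was lowest where Sfrp2 and Dkk2 were highest. The sequences are the 250 bases before the RefSeq gene start, in GRCm38.p6, 5′ to 3′ on the gene's strand. Capitals mark CTTTGA or CTTTGT, core letters of TCF and LEF binding sites, or their reverse complements TCAAAG and ACAAAG.
Sfrp2 (chr3:83766071-83766320, plus strand): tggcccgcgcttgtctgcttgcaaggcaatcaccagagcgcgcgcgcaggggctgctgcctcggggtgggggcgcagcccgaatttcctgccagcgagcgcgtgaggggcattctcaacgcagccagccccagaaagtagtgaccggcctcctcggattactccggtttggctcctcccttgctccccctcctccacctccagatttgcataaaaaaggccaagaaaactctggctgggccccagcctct
Dkk2 (chr3:132085042-132085291, plus strand): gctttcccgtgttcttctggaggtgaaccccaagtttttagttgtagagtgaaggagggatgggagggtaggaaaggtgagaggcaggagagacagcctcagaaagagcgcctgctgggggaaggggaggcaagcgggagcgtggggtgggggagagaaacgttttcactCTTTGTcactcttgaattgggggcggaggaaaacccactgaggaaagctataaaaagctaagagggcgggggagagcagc
Frzb (chr2:80447397-80447646, minus strand): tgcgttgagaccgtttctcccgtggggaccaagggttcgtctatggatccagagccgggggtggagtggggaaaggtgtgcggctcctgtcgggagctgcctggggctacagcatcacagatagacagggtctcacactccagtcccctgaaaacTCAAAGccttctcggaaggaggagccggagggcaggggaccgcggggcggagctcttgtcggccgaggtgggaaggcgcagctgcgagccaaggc
Rspo1 (chr4:124986180-124986429, plus strand): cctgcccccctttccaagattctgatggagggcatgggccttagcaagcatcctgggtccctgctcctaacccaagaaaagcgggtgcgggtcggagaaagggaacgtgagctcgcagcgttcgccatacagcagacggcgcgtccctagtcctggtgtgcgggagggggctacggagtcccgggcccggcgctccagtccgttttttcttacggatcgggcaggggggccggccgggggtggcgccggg
The table held 28 such windows for 25 members, and 6 of the 25 members had a match on either strand. Over all 32851 windows, 27.6% had one. Dkk2 had CTTTGT 80 bases before its start, and Frzb had the reverse complement of CTTTGA 95 bases before. Sfrp2 and Rspo1, which moved in opposite directions in tail, had neither word in the window. The Dkk2 window also held TATAAA, which 12.4% of all windows held on either strand. These are matches of letters, and binding was not measured.

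The R-spondins divided the organs differently from each other. Rspo1 read 3.34, 2.70 and 1.97 in gonad, 3.40, 1.98 and 2.72 in liver, 2.75 and 2.21 in lung and 1.09 and 0.24 in skin. It read -1.32 and -1.25 in kidney, -1.76, -2.05 and -1.76 in heart and -2.87, -2.39 and -2.87 in tail. The gonad, liver and lung arrays overlapped each other and lay above all arrays of skin, kidney, heart and tail, and every tail array was below all the rest. Rspo1 was higher in gonad (log2 2.67 ± 0.34, adjusted p = 0.000483), liver (log2 2.71 ± 0.34, adjusted p = 0.00115) and lung (log2 2.45 ± 0.40, adjusted p = 0.0147). It was lower in tail (log2 -3.61 ± 0.34, adjusted p = 2.31e-05) and heart (log2 -2.61 ± 0.34, adjusted p = 0.00042).

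The Rspo1 differences within slides 1, 2 and 3 were 3.17, 2.49 and 2.97 for gonad, 3.23, 2.52 and 2.98 for liver, -3.13, -2.86 and -1.71 for heart and -4.08, -3.62 and -3.09 for tail. For lung they were 2.47 and 1.91 on slides 1 and 2. The lung call ended when either lung array was left out (adjusted p = 0.270 to 0.404). Mesothelial markers summed to 2111 to 4083% of the 75th percentile in gonad, 1952 to 12950% in liver and 4443 to 10270% in lung. They summed to 575.9 to 579.8% in skin, 682.9 to 901.2% in tail and 126.7 to 345.4% in heart. In kidney they summed to 3241 to 4395%, with Krt8, Krt19 and Msln the highest of them. Their part in the Rspo1 differences, and that of the endothelial markers given above, was not tested.

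Rspo2 was a tail gene in these cultures, at 2.54, 2.25 and 2.47. The next levels were -0.32 and 0.39 in lung and -0.38 and -1.72 in skin. Liver read -6.72, -4.04 and -1.72, gonad -3.04, -3.48 and -4.37, heart -4.30, -6.19 and -3.96 and kidney -3.58 and -6.83, with 1 liver, 1 heart and 1 kidney array not well above background. No other array reached the tail arrays. The tail difference passed (log2 5.56 ± 0.84, adjusted p = 0.000919) and was 6.45, 4.41 and 6.46 within slides 1, 2 and 3.

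Rspo3 was high in both tail and lung. Tail read 4.42, 3.59 and 3.95 and lung 3.28 and 3.08, with 1.47, 2.60 and 0.93 in liver and 0.27 and -1.0 in skin. Kidney read -0.75 and -0.45, heart -0.66, -2.02 and -2.44 and gonad -3.65, -2.73 and -1.28. The tail arrays lay above all others, and lung came next without overlap of liver. Rspo3 was higher in tail (log2 4.05 ± 0.50, adjusted p = 0.000179) and lung (log2 3.11 ± 0.59, adjusted p = 0.031). It was lower in gonad (log2 -3.58 ± 0.50, adjusted p = 0.00107) and heart (log2 -2.59 ± 0.50, adjusted p = 0.00743). Within slides 1, 2 and 3 the differences were 4.60, 3.67 and 4.42 for tail, -4.81, -3.92 and -2.12 for gonad and -2.91, -1.44 and -3.57 for heart, and on slides 1 and 2 they were 3.27 and 3.06 for lung.

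The calls for Rspo3 differed in how they held. The lung call ended with slide as a block (adjusted p = 0.0689), under median scaling (adjusted p = 0.0985), with the replicate number as a block (adjusted p = 0.107) and without any 1 of 9 arrays. The heart call ended without heart 2 or heart 3 (adjusted p = 0.0618 to 0.0778). The raised-floor gonad and heart arrays read highest of their organs for Rspo3, at -1.28 and -0.66. Rspo4, known from nail growth, was well above background on 3 of 18 arrays (heart 1, kidney 1 and skin 1), with levels from -7.47 to -3.18, and passed no comparison.

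Of the R-spondin receptors, Lgr4 and Lgr5 were highest in tail and next in skin. Lgr5, a marker of hair follicle and intestinal stem cells, read 1.75, 1.30 and 2.04 in tail and -1.37 and -1.57 in skin. Kidney read -3.32 and -4.44, lung -4.18 and -5.22 and liver -4.79, -4.85 and -6.95. Heart read -3.71, -6.31 and -6.42, and gonad, with no array well above background, -7.28, -7.15 and -4.49. The tail arrays lay above all others, and the skin arrays lay above all arrays of the internal organs. Lgr5 was at least 64.7-fold higher in tail (adjusted p = 6.83e-05), with fitted differences of 6.48, 6.22 and 6.80 within slides 1, 2 and 3. Over other settings and omissions of 1 array, the fitted log2 difference was 3.89 to 6.95, at its low end below that bound. Lgr5 was well above background on only 1 of 3 heart, 1 of 3 liver and 1 of 2 lung arrays, and the bound includes their other readings. In gonad it was at least 3.07-fold lower (adjusted p = 0.0222), by -4.06, -3.92 and -1.36 within slides, a call that ended without gonad 1 or gonad 2 (adjusted p = 0.213 to 0.235).

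Lgr4, the more widely expressed receptor, was well above background on all 18 arrays. It read -0.29, -1.14 and -0.49 in tail, -1.88 and -1.62 in skin and -2.26, -2.67 and -2.83 in gonad. Lung read -3.03 and -3.41, liver -3.35, -3.54 and -3.22, heart -4.12, -3.67 and -3.57 and kidney -3.34 and -4.10. Tail was above all other arrays and skin above all internal organs. Lgr4 was higher in tail (log2 2.43 ± 0.27, adjusted p = 7.46e-05), by 2.76, 1.87 and 2.83 within slides 1, 2 and 3. It was lower in heart (log2 -1.24 ± 0.27, adjusted p = 0.0152), by -1.19, -1.70 and -1.02 within slides, where kidney 2 read as low. The heart call ended without heart 2 (adjusted p = 0.0584) and in 4 of 12 other settings (log2 -1.22 to -0.61).

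Lgr6, known from stem cells of the skin, was high in skin and low in tail. Skin read -0.99 and -0.51, kidney -3.10 and -2.32, heart -3.08, -3.02 and -3.85 and liver -2.75, -5.28 and -4.28. Lung read -4.59 and -3.96, gonad -4.96, -4.42 and -4.16 and tail -5.84, -3.88 and -5.79. Both skin arrays lay above all others, while the raised-floor tail array fell among other organs. Lgr6 was higher in skin (log2 3.26 ± 0.59, adjusted p = 0.0132), by 2.92 and 3.41 within slides 1 and 2. Without skin 1 or skin 2 the adjusted p was 0.194 to 0.438. It was lower in tail (log2 -1.89 ± 0.50, adjusted p = 0.0351), by -2.73, -0.63 and -1.69 within slides 1, 2 and 3, and 8 of 18 omissions of 1 array ended that call (adjusted p = 0.0502 to 0.274). It also ended in 4 of 12 other settings: quantile scaling, normexp with quantile normalization, the replicate number as a block and the deposited value table, where the difference was -0.79. In tail, only 1 of 3 arrays was well above background for Lgr6.

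**Figure D3:**
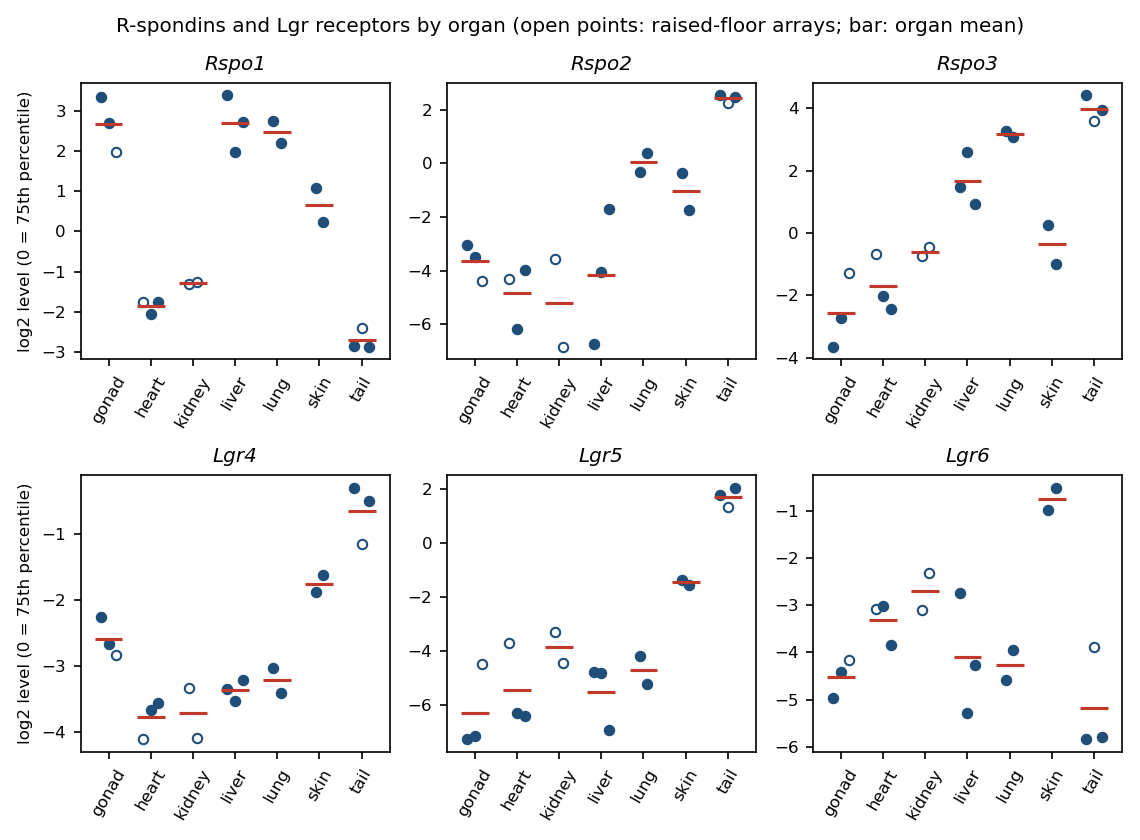
Log2 level (0 is the 75th percentile of the array) of Rspo1, Rspo2, Rspo3, Lgr4, Lgr5 and Lgr6 by organ, 1 point per array, with open points for the 5 raised-floor arrays and a bar at each organ mean; each panel has its own vertical scale. Tail is highest for Rspo2, Rspo3, Lgr4 and Lgr5 and lowest for Rspo1, and skin is highest for Lgr6.

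Skin and tail were then set together against the 5 internal organs, since Wnt signalling is central to dermis and hair follicle. Of the 37 members, 10 were higher and 3 lower, while 4.25% of all genes tested passed, 2.56% higher and 1.69% lower. The higher members were 2 ligands (Wnt5b and Wnt10a), 4 antagonists (Sfrp2, Dkk2, Dkk3 and Wif1), Rspo2, Rspo3, Lgr4 and Lgr5, and the lower members were Sfrp4, Frzb and Rspo1. The skin mean exceeded every internal mean for Wnt5b, Dkk2, Wif1, Lgr4 and Lgr5. Gonad exceeded skin for Sfrp2 (3.4 and 1.4), lung and liver for Dkk3 (5.29 and 4.47 against 3.85) and lung for Rspo2 (0.036 against -1.05). For Frzb, kidney (-1.2) lay below skin (-0.62), and heart (4.1) lay far above both. Only for Lgr4 (log2 2.14 ± 0.22, adjusted p = 7.15e-05) and Lgr5 (at least 32-fold higher, adjusted p = 8.7e-05) did every skin and tail array lie above every internal array. The share of all genes with such a separation was not counted. Over other settings and omissions of 1 array, the fitted log2 difference of Lgr5 was 2.81 to 6.17 (6.165). This comparison shares its arrays with the tail and skin comparisons and is not independent of them. For Sfrp2 (log2 5.01 ± 0.68), Dkk2 (log2 4.20 ± 0.41) and Rspo2 (log2 4.24 ± 0.71), tail stood above skin. The tail and skin means were 6.89 ± 0.05 and 1.40 ± 0.12 (SD, n = 3 and 2) for Sfrp2, 5.23 ± 0.33 and 1.25 ± 0.06 for Dkk2, and 2.42 ± 0.15 and -1.05 ± 0.95 for Rspo2.

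The same comparison gave Wnt5b log2 1.80 ± 0.28, adjusted p = 0.00163, Dkk3 log2 1.58 ± 0.31, adjusted p = 0.00758 and Rspo3 log2 1.81 ± 0.42, adjusted p = 0.023. Wnt10a was at least 3.44-fold higher (adjusted p = 0.00589) and Wif1 at least 6.23-fold higher (adjusted p = 0.00112). On the lower side, Sfrp4 was at least 3.36-fold lower (adjusted p = 0.00463). Frzb and Rspo1 gave log2 -1.75 ± 0.37, adjusted p = 0.0127 and log2 -1.97 ± 0.29, adjusted p = 0.000891. For Sfrp4, Rspo1 and Rspo3, tail alone lay apart from the internal organs in the direction of the call by more than 0.3 log2 units. The tail, skin and internal means were -6.07, -1.60 and -1.33 for Sfrp4, -2.71, 0.66 and 0.94 for Rspo1 and 3.99, -0.37 and -0.0023 for Rspo3. The skin mean of Rspo3 was thus on the other side of the internal mean. Conversely, the Wnt10a means were -3.33, 0.020 and -3.79. The fitted Wnt10a difference was 1.90, 3.42 and 0.074 within slides 1, 2 and 3, where slide 3 held tail and no skin. Single omissions ended the calls of Wnt10a (without skin 2, adjusted p = 0.0714), Frzb (without skin 2, 0.138), Dkk3 (without skin 1, 0.0730) and Rspo3 (without any of 5 arrays, 0.0507 to 0.219). Other settings ended 5 of the 13 calls. Quantile scaling, without and with normexp, ended those of Sfrp4 (fitted log2 -2.09 and -1.03, adjusted p = 0.0740 and 0.105) and Wnt10a (fitted log2 1.46 and 0.71, adjusted p = 0.116 and 0.0716). Without the raised-floor arrays Dkk3 fell below the log2 threshold (log2 0.96), and with normexp and quantile normalization on those arrays Lgr4 did (log2 0.88). The Rspo3 call ended under median scaling (adjusted p = 0.0767) and with the replicate number as a block (adjusted p = 0.0535).

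**Figure D4:**
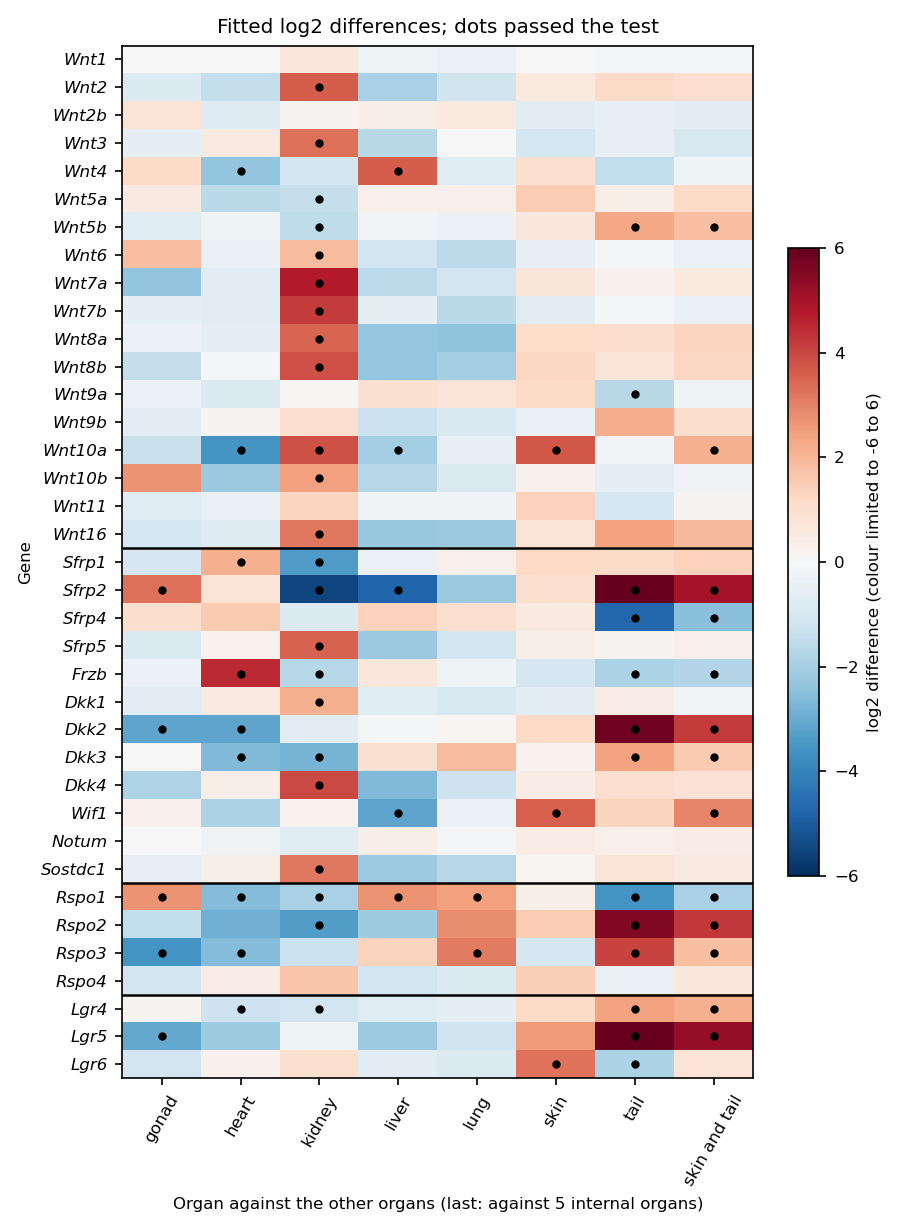
Fitted log2 difference of each member (rows, by role) in each organ against the other 6 (columns), and in skin and tail against the 5 internal organs (last column); the colour scale is limited to -6 to 6 and a dot marks a member that passed. Tail has 13 dots and the skin and tail column 13, while kidney has 23 dots in a comparison where 77.8% of all genes passed.

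By list, 1 of 18 ligands was higher in tail and 1 lower, 3 of 12 antagonists were higher and 2 lower, 2 of 4 R-spondins were higher and 1 lower, and 2 of 3 Lgr receptors were higher and 1 lower. Over all genes tested, 4.08% were higher in tail and 2.19% lower. The median difference in tail was -0.07 over the ligands and 0.90 over the antagonists, against 0.34 over all genes tested. In heart 2 antagonists were higher and 2 lower, and the calls of 2 ligands, 2 R-spondins and 1 Lgr receptor were all lower. Over all genes, 1.37% were higher in heart and 2.39% lower. The heart medians were -0.66 for ligands and 0.36 for antagonists, against -0.11 over all genes. In lung both calls among the members were R-spondins, and 0.533% of all genes passed there.

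The other genes of the pathway were counted in the same comparisons. Over all genes tested, 6.27% passed in tail, 3.76% in heart, 1.82% in liver and 4.25% in skin and tail together. In the same order, 16.7%, 9.52%, 4.76% and 7.14% of these pathway genes passed, and the gap was not tested. Of 42 such genes, tail had 4 higher and 3 lower: the largest were Ror2, a receptor for Wnt5a (log2 2.05 ± 0.40, adjusted p = 0.00639), Fzd6 (log2 -2.02 ± 0.36, adjusted p = 0.00323), Fzd4 (log2 -1.94 ± 0.44, adjusted p = 0.015) and Fzd1 (log2 1.85 ± 0.39, adjusted p = 0.0106), the last 3 being Frizzled receptors. Heart had 2 higher and 2 lower: Apcdd1, a surface inhibitor of the pathway (log2 2.39 ± 0.40, adjusted p = 0.0027), Dact1, which binds Dishevelled (log2 1.80 ± 0.30, adjusted p = 0.00295), Nkd1, a feedback inhibitor (log2 -1.41 ± 0.34, adjusted p = 0.0312), and Fzd7 (log2 -1.29 ± 0.24, adjusted p = 0.00583). Liver had 2 higher, Nkd1 (log2 2.13 ± 0.34, adjusted p = 0.00535) and Fzd6 (log2 1.69 ± 0.36, adjusted p = 0.0303). Skin and tail together had Ror2 (log2 1.84 ± 0.34, adjusted p = 0.00541) and Fzd1 (log2 1.38 ± 0.33, adjusted p = 0.0285) higher and Fzd6 (log2 -1.82 ± 0.31, adjusted p = 0.00273) lower. In gonad, lung and skin limma called 0 of 42, where 2.94%, 0.533% and 1.39% of all genes passed. Of the 42, 5, 7 and 5 had an unadjusted p under 0.05, a share that was not counted over all genes.

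In the kidney comparison 23 members passed, 14 higher and 9 lower, but so did 77.8% of all genes tested (35.5% higher and 42.4% lower). The members' share, 62.2%, was below that background, and kidney had no array without a raised floor, so these values are given as a description. Both kidney arrays read above the other raised-floor arrays for some ligands. Wnt7a read 0.36 and 0.81 in kidney, -2.01, -1.07 and -2.06 on gonad 3, heart 1 and tail 2, and -7.36 to -1.89 with a median of -4.75 on the 13 other arrays. Wnt7b read -0.47 and -0.59 in kidney, -2.54, -2.09 and -3.39 on those 3 arrays and -6.30 to -3.69 with a median of -5.08 on the 13 others. Wnt10a in kidney, described above, also exceeded those 3 arrays. Kidney was highest among raised-floor arrays for these 3 genes, but those arrays were not alike in floor. Their median raw signal was 1985 and 833 in kidney, 1100 on heart 1, 223 on gonad 3 and 213 on tail 2. The limma difference of Wnt7a was log2 4.78 ± 1.51, adjusted p = 0.014. Wnt7b was at least 17.5-fold higher (adjusted p = 0.00284) and Wnt10a at least 11.7-fold higher (adjusted p = 0.000867). Simple epithelial markers summed to 8118 to 10460% of the 75th percentile in kidney and 48.27 to 6919% elsewhere. Krt18 weighed most in the kidney sums, at 5.91 and 6.24, and read 5.92 on liver 1 and 5.99 on lung 1. All 7 of these markers passed as higher in kidney, as did 35.5% of all genes. The part of the simple epithelial markers was not tested.

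Other ligands that passed in kidney also read high on the remaining raised-floor arrays. Wnt2 read 0.37 and 0.36 in kidney and -0.75, 0.38 and -1.55 on gonad 3, heart 1 and tail 2, against -6.44 to -1.37 with a median of -4.16 on the 13 others. Wnt16 read 0.44 and 0.41, -0.93, 0.16 and -0.29 and -4.92 to -0.12 with a median of -4.05 in the same order. For both genes heart 1 stood far above heart 2 and heart 3. Wnt8a read -0.18 and -1.42, -1.68, -0.57 and -2.12 and -6.93 to -2.35 with a median of -5.35, and Wnt8b -1.06 and -0.64, -1.78, -0.61 and -2.09 and -7.24 to -2.74 with a median of -5.66. Wnt3 read -2.70 and -3.12, -4.14, -3.01 and -4.67 and -7.67 to -5.28 with a median of -6.79. In each of these 3 genes all 5 raised-floor arrays lay above all 13 others. The kidney differences were log2 3.65 ± 1.31 for Wnt2 and log2 3.18 ± 1.03 for Wnt16. On the other Wnt16 probe kidney was not highest: it read -1.98 and -2.845 there, below all tail arrays (-0.73, -1.42 and -1.38). Wnt8a was at least 9.82-fold higher in kidney, Wnt8b at least 11-fold and Wnt3 at least 4.29-fold. The adjusted p of these 5 ligands ran from 0.00752 to 0.0229.

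Wnt6 and Wnt10b shared high levels on gonad and kidney arrays. Wnt10b read 0.77, 0.87 and -0.11 in gonad, 0.31 and 0.26 in kidney and -1.58 and -1.62 in skin. It read -2.95, -2.16 and -1.77 in tail, -2.52 and -2.59 in lung, -1.96, -3.31 and -4.55 in liver and -0.64, -5.26 and -5.27 in heart. Gonad 1 and gonad 2 were the highest of all arrays. The kidney difference was log2 2.44 ± 0.91, adjusted p = 0.0262, and the gonad difference (log2 2.70 ± 0.77, adjusted p = 0.091) missed the threshold. Wnt6 read -1.90, -1.88 and -1.82 in gonad, -1.42 and -2.18 in kidney, -1.77, -4.61 and -5.0 in heart and -4.33, -2.70 and -3.43 in tail. In skin it read -3.18 and -4.55, in liver -5.85, -3.80 and -3.62 and in lung -5.21 and -4.37. The kidney difference of Wnt6 (log2 1.90 ± 0.74, adjusted p = 0.0311) reversed under quantile scaling. Wnt1 lies beside Wnt10b on chromosome 15 (windows at chr15:98789607-98789856 and chr15:98778151-98778400), but its levels stayed between -1.62 and -0.27 on all 18 arrays and passed no comparison. The other Wnt1 probe was well above background on 2 arrays, so the probes disagree on whether Wnt1 was detected.

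Among antagonists, Dkk4, Sfrp5, Sostdc1 and Dkk1 passed as higher in kidney and in no other organ. Dkk4 read 0.43 and 0.28 in kidney, -0.98, 0.02 and -1.42 on gonad 3, heart 1 and tail 2 and -6.90 to -2.19 with a median of -4.14 on the 13 others. Sfrp5 read -1.50 and -1.85, -2.64, -1.81 and -3.36 and -7.14 to -3.48 with a median of -6.0 in that order. Sostdc1 and Dkk1 read -2.14 and -2.88 and -3.28 and -5.0 in kidney, -2.50, -2.04 and -3.23 and -5.43, -3.79 and -4.53 on those 3 arrays, and at most -4.69 and -5.78 on the 13 others. In each of these 4 genes all raised-floor arrays lay above all others. The kidney difference of Dkk4 was log2 3.95 ± 1.21, adjusted p = 0.0121. Sfrp5 was at least 8.48-fold higher (adjusted p = 0.0176), Sostdc1 at least 5.07-fold (adjusted p = 0.0246) and Dkk1 at least 1.61-fold (adjusted p = 0.017). In all, 8 of 37 members (21.6%) were higher on every raised-floor array than on every other array, and 22.2% of all genes tested were.

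Antagonists, R-spondins, ligands and Lgr4 were among the 9 members lower in kidney. Sfrp1 (log2 -3.39 ± 0.53, adjusted p = 0.00105) and Sfrp2 (log2 -5.51 ± 0.95, adjusted p = 0.00138) had the largest such differences with Rspo2 (log2 -3.34 ± 1.0, adjusted p = 0.0109) and Dkk3 (log2 -2.78 ± 0.43, adjusted p = 0.00105). Rspo1 (log2 -1.94 ± 0.40), Frzb (log2 -1.69 ± 0.52), Wnt5b (log2 -1.51 ± 0.40), Wnt5a (log2 -1.42 ± 0.53) and Lgr4 (log2 -1.16 ± 0.31) made up the rest, with adjusted p from 0.00208 to 0.0258. For Sfrp1 both kidney arrays lay below all others, including the other raised-floor arrays. Of the 23 kidney calls, 11 were lost or reversed in at least 1 of up to 10 other settings. With normexp and quantile normalization the fitted differences were 0.13 for Wnt3, 0.20 for Sfrp5, 0.25 for Sostdc1, 0.71 for Wnt8b and -0.88 for Dkk3, and those of Wnt6 and Dkk1 reversed. Median scaling ended the calls of Frzb, Lgr4, Wnt5a and Wnt5b (log2 -0.81 to -0.28).

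**Figure D5:**
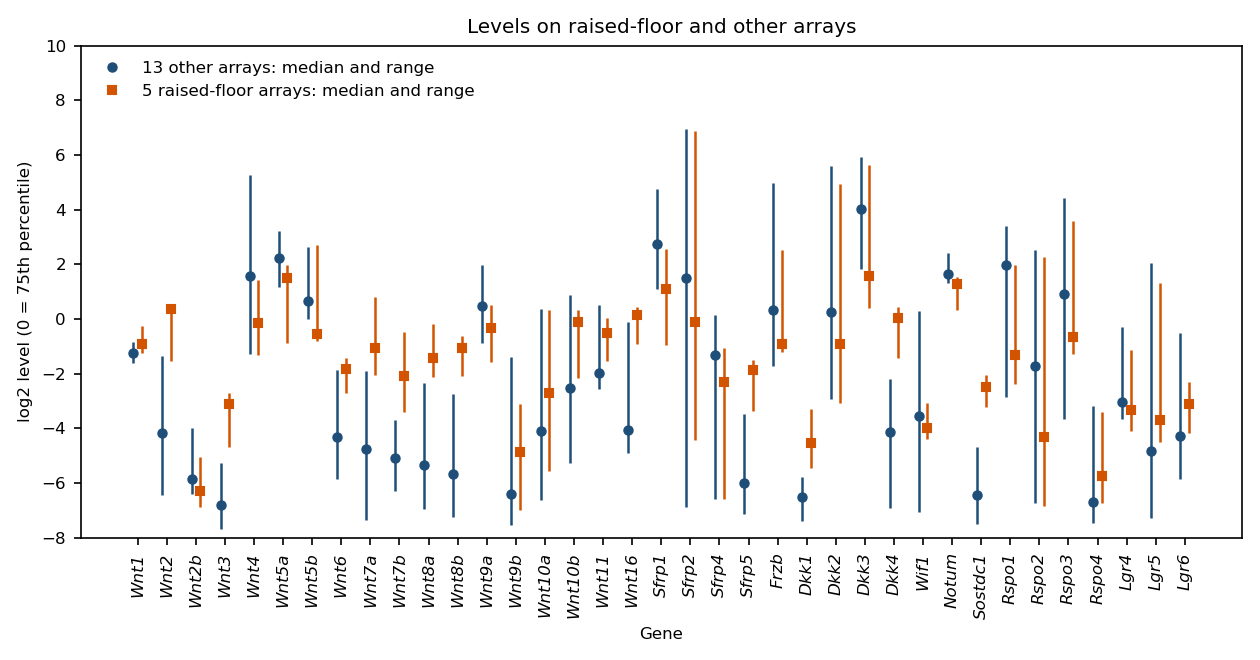
Median (point) and range (line) of the log2 level of each tested member on the 13 other arrays (circles) and on the 5 raised-floor arrays (squares). The square and its line lie wholly above the circle's line for Wnt3, Wnt7b, Wnt8a, Wnt8b, Sfrp5, Dkk1, Dkk4 and Sostdc1, and the lines overlap for the other members.

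Of the remaining members, Notum, Wnt1 and Wnt11 were well above background on all 18 arrays. Notum, the enzyme that inactivates Wnt proteins, ranged from 0.32 to 2.42 and passed neither the F test (adjusted p = 0.544) nor any organ comparison. Wnt11, a ligand acting largely without beta-catenin, read -0.039 and -0.0087 in skin and from -2.58 to 0.52 elsewhere, and its skin difference (log2 1.38 ± 0.64, adjusted p = 0.462) missed the threshold. Wnt2b was well above background on gonad 1 and gonad 2 alone, at -3.99 and -4.49. Wnt9b was so on heart 1, kidney 1 and tail 3, at -4.62, -3.11 and -1.41, and no other array of the same organs was.

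The comparisons were repeated on the 13 other arrays, which hold 6 organs and no kidney. The F test then passed 26 of 37 members, against 47.1% of all genes. Tail had 21 members (20.8% of all genes), heart 17 (8.33%), gonad 13 (20.7%), skin 13 (23.4%), skin with tail 18 (27.4%), liver 9 (5.51%) and lung 2 (2.03%). With normexp background correction and quantile normalization on the same arrays, fewer genes passed: 24 members in the F test (42% of all genes), 15 in tail (6.91%), 13 in heart (5.08%), 9 in gonad (4.94%) and 6 in skin (5.8%). Liver had 6 (2.63%), lung 4 (1.79%), and skin and tail together 12 (5.34%).

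Members that passed on those 13 arrays in both ways, but not on all 18, included Wnt16 in tail. Wnt16, a ligand known from cortical bone, read -0.12, -0.29 and -0.30 in tail, above all other arrays without a raised floor. It was at least 11.6-fold higher in tail (adjusted p = 0.000311), since heart 2 and heart 3 were not well above background. Its other probe was also highest in tail, at -0.73, -1.42 and -1.38. In gonad, Wnt10b was at least 12.3-fold higher (adjusted p = 0.00152), Wnt6 at least 5.1-fold higher (adjusted p = 0.0141) and Sfrp1 lower (log2 -1.78 ± 0.30, adjusted p = 0.00363).

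In heart on the same arrays, Sfrp4 was at least 3.82-fold higher (adjusted p = 0.0403) and Wnt5a lower (log2 -1.30 ± 0.29, adjusted p = 0.0179). Wnt10b and Lgr5 also passed as lower there, and neither was well above background on heart 2 or heart 3. Wnt4 was lower in tail (log2 -1.81 ± 0.57, adjusted p = 0.0390), and Sfrp1 was lower in liver (log2 -1.19 ± 0.26, adjusted p = 0.0278). In skin, Frzb was lower (log2 -1.50 ± 0.23, adjusted p = 0.00225) and Wnt11 higher (log2 1.87 ± 0.62, adjusted p = 0.0449).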

How the data were processed

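Cultured fibroblasts of 7 organs were measured on 1-colour Agilent mouse arrays, labelled with Cy3 from 0.1 µg of RNA. Per the file headers and the submitters' processing notes, the authors extracted spots with Agilent Feature Extraction 11.0.1.1. The deposited values used are the processed spot intensity of each array, which the software had corrected for background, and the deposited 0 or 1 flags, which are of another unit. The deposited value table, an intensity equal to the raw median signal, served as an alternative and alone holds lung replicate 2.

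From these values log2 of the processed intensity less the 75th percentile of each array was computed, each probe counted once and outlier spots set missing. RefSeq accessions tied 27235 of 55681 probes to a gene symbol. Each gene was read by its complete probe with the highest mean, and genes needed 2 arrays well above background. The tests covered 19717 genes, after 463 were dropped as dim and 480 for want of a complete probe. Of the members, 5 had 2 probes. A linear model with a mean for each of 7 organs and 11 residual degrees of freedom was fitted with limma 3.58.1 (R 4.3.3), and Benjamini-Hochberg adjustment ran over all genes in each comparison. The steps were tested on simulated data. In skin, 10% of simulated log2 shifts of 1.5 and 66% of shifts of 4 were recovered, and in tail 28% and 90%. A gene that did not pass is thus not shown to be equal between organs. The number of arrays limits the precision.

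The members, the pathway and marker lists, the tests and the alternatives were chosen with earlier results of these data known. Members that passed a comparison are described with values on every array (for members that passed in kidney alone, by range over the 13 other arrays), the rest by ranges and detection, and at most 4 other pathway genes are named per comparison. Slide was read from the file headers: each of 3 slides held several organs. Deviations of samples with the same replicate number had a mean correlation of -0.03 over 46 pairs, with single pairs from -0.85 to 0.78. The labels do not say that the numbers pair samples, so they were not used as pairs. With so wide a range, this check cannot tell whether same-numbered samples share mice. Alternatives were quantile and median scaling, normexp (offset 50) with quantile normalization, other dim filters, the mean of a gene's probes, slide or replicate number as a block, array floor as a covariate, the value table, leaving out the raised-floor arrays, and leaving out each array. Promoters came from RefSeq (GRCm38.p6). Probe sequences and proteins were not used here.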

Additional observations from a re-analysis of the deposited data

How the results depend on the processing

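Outside kidney, the 50 calls of members were refitted under 12 other settings: 562 of 600 values kept the call, 38 lost it and 0 reversed. Of the 50 calls, 36 were kept in all 12 settings and 28 also under each of 18 omissions of 1 array. All 145 differences within a slide had the direction of the call. They split the arrays that made the calls, so agreement in direction was likely beforehand and is no independent support. The organs present also differed between slides, with no kidney on slide 2 and no skin or lung on slide 3. With slide as a block 47 of 50 calls were kept, and the losses were those of Sfrp2 in gonad, Rspo3 in lung and Wnt10a in liver.

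Counts of members passing moved by more than 1.5 times as follows, with the main counts being 5 in gonad, 9 in heart, 23 in kidney, 5 in liver, 2 in lung, 3 in skin and 13 in tail. Without the raised-floor arrays they were 13 in gonad, 17 in heart, 9 in liver, 13 in skin and 21 in tail. With normexp and quantile normalization on those arrays they were 9 in gonad, 4 in lung and 6 in skin, and on all arrays 3 in liver. Quantile scaling gave 6 in skin, and the deposited intensities of all 19 samples gave 8 in gonad and 5 in lung. Slide as a block gave 1 in lung. The replicate number as a block also gave 1 in lung and 16 in the F test against 20, and the labels do not say what samples of the same number share. Over all genes, the value table passed 702 in gonad against 579 in the main fit, and 493 in lung against 105. In lung, slide as a block passed 57 genes and the replicate number 46. The replicate number as a block passed 3264 genes in the F test against 6698. Normexp with quantile normalization on all arrays passed 473 genes in liver against 358. Shares of all genes without the raised-floor arrays are given above. The cause of these moves was not tested.

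Leaving out 1 array gave 15 (without skin 2) to 29 (without gonad 3 or heart 1) in the F test and 3 (without gonad 1 or gonad 2) to 9 (without gonad 3) in gonad. It gave 6 (without heart 2) to 15 (without heart 1) in heart and 4 (without kidney 1) to 27 (without heart 1) in kidney. It gave 4 to 5 in liver, 0 (without lung 1 or lung 3) to 3 in lung, 0 (without skin 1 or skin 2) to 7 (without heart 1) in skin, 10 to 15 in tail and 10 to 15 in skin and tail together. Counts over all 19717 genes also moved. The F test passed 6698 on all arrays, 16084 without heart 1 and 14108 without gonad 3. In gonad 579 passed on all arrays, 2516 without gonad 3, and 212 and 225 without gonad 1 or gonad 2. In heart 742 passed on all arrays, 2068 without heart 1 and 463 without heart 2. In kidney 15342 passed on all arrays and 16146 without heart 1. In kidney, Wnt6 reversed to -0.20 under quantile scaling and -0.11 with normexp and quantile normalization, and Dkk1 to -0.34 and -0.048. For dim members such as Wnt3 and Dkk1 the signal over background limits any comparison.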
